A study of Drosophila melanogaster with 4 samples.

Results

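The Turandot genes and the core genes of the JAK-STAT pathway were followed in larval fat bodies of Drosophila melanogaster. Of 9 listed genes, 3 had a row under a single gene symbol in the platform's probe-to-gene table, among 13402 genes measured: the Turandot gene TotC, the receptor gene dome and the transcription factor gene Stat92E. The other 6, TotA, TotM, TotX, Socs36E, hop and upd3, were not analysed here. Larvae of strain w1118, both diets alike, had eaten a semi-purified diet for 5 days from the egg stage. In the PFJ group palm fruit juice was mixed into that diet, at a dose that the labels state as 4 ml, with a phenolic content (in gallic acid equivalents) of 19000 mg per kg or 0.86 mg per kcal of food, and the control group ate the diet alone. Each group had 2 arrays, and each array carried RNA from the pooled fat bodies of 10 larvae, so larvae within a pool were not measured separately. The labels do not say whether the pools came from separate cultures, and p-values measure only the spread between these pools.

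In flies, cytokines of the unpaired family (upd1, upd2 and upd3) bind the receptor Domeless, the product of dome. The kinase Hopscotch (hop) on the receptor then phosphorylates Stat92E, which enters the nucleus and turns on target genes, among them the pathway's own inhibitor Socs36E. In the fat body, a main source of secreted stress and immune proteins, the Turandot genes are classical targets. They encode small secreted proteins that accumulate in the hemolymph after heat, infection, injury or oxidative stress, and their activation is known to draw on JAK-STAT, on the Imd pathway factor Relish and on the Mekk1 stress kinase.

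The values were log2 intensities made with RMA. No detection call came with them, so each array was given an empirical floor: the 95th percentile of 170 rows of odorant, gustatory and ionotropic receptor genes, sensory families for which fat body transcripts are not expected. The floor was 3.18 and 3.04 on the PFJ arrays and 2.95 and 3.13 on the control arrays, and 60.2% of all genes exceeded it on all 4 arrays. Probes of different rows bind with different strength, so a row was compared between arrays and with the floor of its own array, and the order of 2 genes' levels was not read as an order of transcript numbers. All 11 fat body markers with a row lay above the floor on all 4 arrays. Their summed linear intensity was 15923 and 17075 with PFJ and 13554 and 12994 in controls. Both PFJ values lay above both control values in 7 of them, against 15.5% of all genes, and below in 1, against 13.1%. The log2 differences of these markers ran from -0.09 to 1.26 with a median of 0.33. Markers of other tissues were present too. The summed linear intensity of 12 hemocyte markers was 301 and 436 with PFJ and 294 and 392 in controls, that of 16 midgut markers 5216 and 8865 with PFJ and 3940 and 11849 in controls, and that of 17 testis markers 924 and 468 with PFJ and 1373 and 102 in controls. For 8 muscle markers it was 1331 and 2540 with PFJ and 1744 and 753 in controls. All 8 differences were positive (median 0.62), against 51.9% of all genes. The diets overlapped in all 8, and did not overlap in 28.6% of all genes. For 10 cuticle markers it was 579 and 756 with PFJ and 460 and 594 in controls. Both PFJ values lay above both control values in 5 of the 10, against 15.5% of all genes. Among those 5, only Cpr67B was above the floor on all 4 arrays. Of the 12 hemocyte rows, 3 (Hml, PPO1 and PPO2, with log2 differences from 0.68 to 1.26) were higher at an unadjusted p under 0.05, as were 1.74% of all genes. The hemocyte list went both ways, with 7 positive and 5 negative differences. NimC1 and crq, both plasmatocyte markers, were at -0.67 each, but the NimC1 row exceeded the floor on control replicate 2 alone. On the same list eater was at 0.32, above the floor on 2 arrays, Pxn at -0.01 and Sr-CI at -0.17. Of the rows on the hemocyte, midgut, testis and cuticle lists, 4, 2, 15 and 4 were at or below the floor on at least 1 array. The part of all these tissues in the results on pathway genes was not tested. In pooled tissue, fewer cells of a type and less RNA per cell cannot be told apart.

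TotC was at the floor of the array on both diets. It read 2.13 and 2.06 in the PFJ pools, against 1.96 and 1.83 in the control pools. Both PFJ values lay above both control values, but all 4 lay well under the floor, by 1.05 and 0.98 with PFJ and by 0.99 and 1.30 in controls. Of the 170 receptor genes, 31 and 17 read lower than TotC on the PFJ arrays, as did 17 and 3 on the control arrays. TotC stood at percentile 2.63 and 2.95 of all genes with PFJ and at 1.55 and 0.93 in controls. No fold is given for a row below the floor on every array. Limma's moderated test across all genes gave TotC an unadjusted p of 0.297 and an adjusted p of 1.

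The 4 other Turandot genes with a row did not exceed the floor on any array. In the RefSeq Release 6 assembly TotC lies between TotA and TotB, and TotZ follows TotB. TotB read 2.34 and 1.99 with PFJ and 1.94 and 1.89 in controls. TotZ read 2.12 and 2.09 with PFJ and 2.06 and 1.98 in controls, and the values of TotF, 1.99 and 2.28 with PFJ and 2.03 and 2.15 in controls, overlapped. TotE was the closest of the 4 to the floor, with 2.62 and 2.71 in the PFJ pools, against 2.30 in both control pools. These PFJ values of TotE were above both control values and still below the floor, and limma's adjusted p was 1 (unadjusted 0.0827). Counted with TotC, the PFJ values lay above the control values in 4 of 5 Turandot rows, where 15.5% of all genes showed that order. It was more frequent, at 26.9%, among the 3059 genes (22.8% of all) that were at or below the floor on all 4 arrays as these 5 were, and no change is read from it. Turandot genes are related in sequence, and signal shared between copies was not analysed here.

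**Figure D1:**
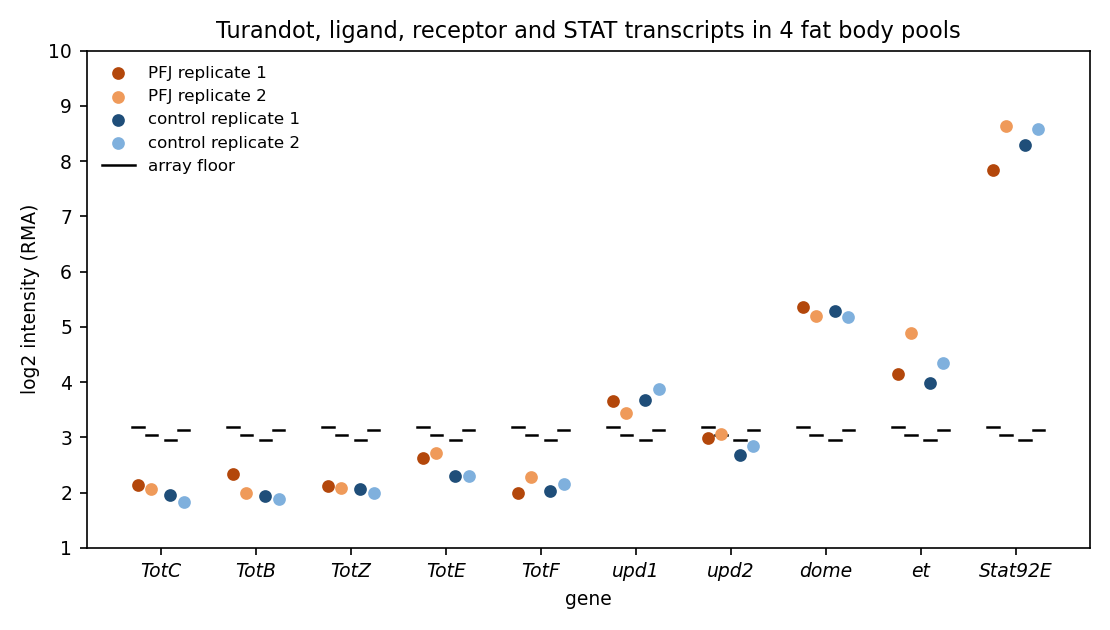
Log2 intensity (vertical axis) of Turandot, ligand, receptor and STAT rows (horizontal axis), with 1 point per array, PFJ in orange and control in blue, and a black dash for the floor of the same array. All 5 Turandot rows lie below the dashes on every array, and dome, et, upd1 and Stat92E lie above them on every array.

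Of the cytokines, upd3 was not analysed here and the 2 others were near the floor. The upd1 row, for the ligand best known from embryo patterning and stem cell niches, read 3.65 and 3.45 with PFJ and 3.68 and 3.88 in controls. This row exceeded the floor on all 4 arrays, and both PFJ values were below both control values, as in 13.1% of all genes. Its log2 difference was -0.23 (SE 0.19, limma unadjusted p 0.282). The upd2 row, for the ligand by which the fat body reports its fed state to the brain, read 2.99 and 3.06 with PFJ and 2.68 and 2.84 in controls. Both PFJ values were the higher ones, but the row exceeded the floor on 1 array alone, PFJ replicate 2 (unadjusted p 0.190).

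The receptor gene dome was clearly above the floor, and its values overlapped between the diets. It read 5.36 and 5.21 in the PFJ pools, against 5.28 and 5.19 in the control pools, which is 2.05 to 2.33 above the floor and between percentiles 69.1 and 73.0 of all genes. The mean was 5.28 ± 0.11 with PFJ and 5.23 ± 0.07 in controls (SD, n = 2 each). The log2 difference was 0.05 (SE 0.17, limma adjusted p 1), with a 95% interval from -0.42 to 0.52, or 0.75-fold to 1.43-fold. The gap between the PFJ pools was 0.16 and that between the control pools 0.09, so both were wider than the difference between the diets. Without PFJ replicate 1 the difference was -0.03. The gene et, the neighbour of dome, encodes a shorter relative of the receptor that dampens signalling. It read 4.15 and 4.90 with PFJ and 3.99 and 4.34 in controls, with a log2 difference of 0.36 (SE 0.33, unadjusted p 0.337).

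Stat92E, the single STAT transcription factor of the fly, was far above the floor in every pool, by 4.67 and 5.60 with PFJ and by 5.35 and 5.45 in controls. Its row read 7.85 and 8.64 in the PFJ pools, against 8.30 and 8.58 in the control pools. The PFJ pools held both the lowest and the highest value, and the control values lay between them. The mean was 8.24 ± 0.56 with PFJ and 8.44 ± 0.20 in controls (SD, n = 2 each), a log2 difference of -0.20 (SE 0.33, limma adjusted p 1). The 95% interval ran from -1.12 to 0.73, or 0.46-fold to 1.66-fold. The direction rested on 1 pool: the difference was 0.20 without PFJ replicate 1 and -0.59 without PFJ replicate 2. The gap of 0.79 between the PFJ pools was larger than that of 89.5% of all genes, whose median gap was 0.26.

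Of the members, Stat92E varied most over the 4 arrays. By root-mean-square distance between mean-centred log2 values over the 4 arrays, the closest profiles among all genes were CG16700 at 0.021, Lrt at 0.021 and ths at 0.030. These rows were likewise lowest in PFJ replicate 1. CG16700 read 4.67 there, against 5.49 in PFJ replicate 2 and 5.18 and 5.45 in controls. Over all genes, 128 read at least 1 log2 unit lower in PFJ replicate 1 than in each other array, and 376 did so in control replicate 2. With 4 arrays many profiles come close to any given one, and the likeness is a description of these pools.

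**Figure D2:**
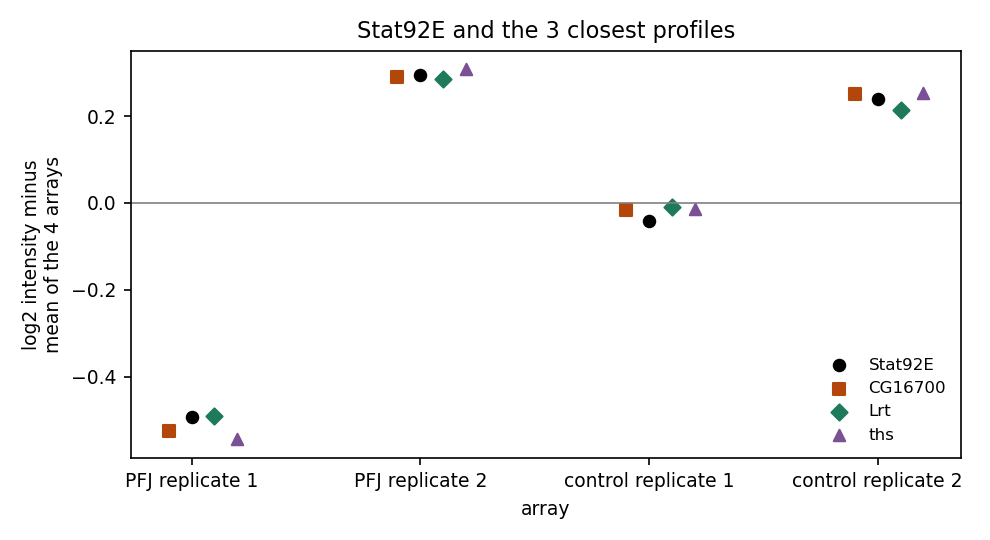
Log2 intensity minus the mean of the 4 arrays (vertical axis) by array (horizontal axis), for Stat92E and the 3 genes with the closest profile. All 4 rows are lowest in PFJ replicate 1 and highest in PFJ replicate 2, and the control arrays lie between.

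**Figure D3:**
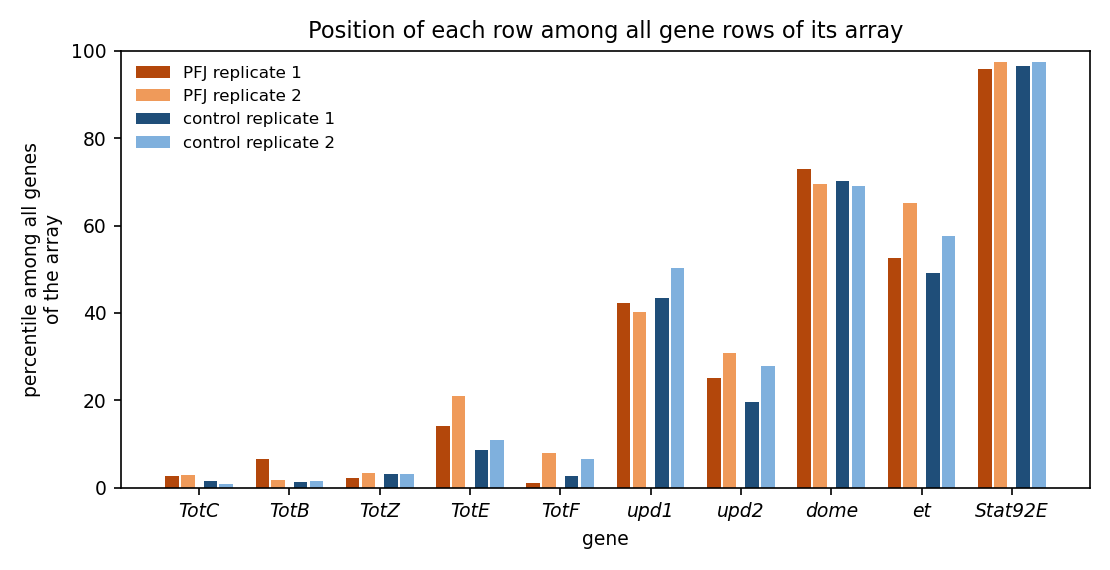
Percentile of each row among all genes of its array (vertical axis, from 0) for the Turandot, ligand, receptor and STAT rows (horizontal axis), with 1 bar per array. The bars of TotC stay between 0.93 and 2.95, those of dome between 69.1 and 73.0 and those of Stat92E between 95.9 and 97.5 on both diets.

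Socs36E, the inhibitor most used as a readout of the pathway, was not analysed here. Of 10 genes listed as candidate negative regulators, 9 had a row. Among the 9, limma called 0 at an adjusted p under 0.05 and 0 at an unadjusted p under 0.05. Of all genes, 0% and 2.78% were called. The median log2 difference of the 9 was -0.09, next to 0.01 over all genes. Differences were positive in 3 and negative in 6, where 51.9% of all genes had a positive one. The median was 0.018 without PFJ replicate 1 and 0.0028 with quantile normalization repeated. The smallest p belonged to ken, a BCL6-like repressor of a subset of Stat92E targets, which read 5.85 and 6.13 in the PFJ pools, against 6.43 and 6.68 in the control pools. Both PFJ values were below both control values, as in 13.1% of all genes. The log2 difference of ken was -0.56 (SE 0.20, unadjusted p 0.0508, adjusted p 1). Su(var)2-10, the fly PIAS protein gene, differed by -0.37 (SE 0.23), the transcription factor gene apt by -0.16 (SE 0.20) and enok by -0.09 (SE 0.16). The 2 SOCS genes with a row had differences below their SE of 0.16 and 0.19. Socs44A read 6.47 and 6.46 with PFJ and 6.31 and 6.46 in controls, and Socs16D read 6.42 and 6.71 with PFJ and 6.64 and 6.66 in controls.

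The 10 candidate positive regulators all had a row, and 0 passed the adjusted or the unadjusted threshold, where 0% and 2.78% of all genes did. The median log2 difference of the 10 was -0.09, which was 0.09 without control replicate 2 and -0.26 without control replicate 1. Asx, a chromatin regulator gene, differed by -0.29 (SE 0.16) and HP1b, for a heterochromatin protein, by 0.32 (SE 0.20). The HP1b row was near the floor. Relative to it, HP1b stood at 0.18 and 0.44 with PFJ and at -0.015 and 0.13 in controls. CycD, the cyclin D gene, and Stam, for an endosomal sorting protein, had the next smallest p-values, at -0.76 (SE 0.50) and -0.74 (SE 0.52). Both followed Stat92E in being lowest in PFJ replicate 1: Stam read 6.47 and 7.75 with PFJ and 7.58 and 8.13 in controls.

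Genes listed as candidate targets of the pathway were above the floor, with differences in both directions. Of 13 listed genes 10 had a row, dome among them, with a median log2 difference of -0.07. Differences were positive in 3 and negative in 7, where 51.9% of all genes had a positive one. Both PFJ values lay below both control values in 3, against 13.1% of all genes, and above in 1, against 15.5%. A shift of the list was not tested. Limma called 0 at an adjusted p under 0.05 and 1 at an unadjusted p under 0.05. In that direction, higher with PFJ, 1.74% of all genes were called. That gene was Ance, for a homolog of angiotensin-converting enzyme, with 7.55 and 7.62 in the PFJ pools, against 7.02 and 7.16 in the control pools. Its log2 difference was 0.50 (SE 0.17, unadjusted p 0.0394, adjusted p 1). The transcriptional repressor gene chinmo, a Stat92E target in the testis niche, read 5.52 and 5.56 with PFJ and 5.96 and 5.87 in controls, a log2 difference of -0.37 (SE 0.16). The log2 difference of zfh1, another target in that niche, was -0.33 (SE 0.24), and that of Mo25, for a kinase scaffold, was -0.45 (SE 0.33).

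The immune effectors of the list gave no separation of the diets. The virus-induced gene vir-1 read 7.28 and 7.07 with PFJ and 7.002 and 7.503 in controls. Diedel, for a secreted immune modulator, read 4.11 and 3.50 with PFJ and 3.34 and 3.95 in controls. Listericin, for an antibacterial protein, read 5.28 and 3.47 with PFJ and 4.76 and 4.13 in controls, and its log2 difference of -0.07 had an SE of 0.70. In all 3 the spread within a diet was wider than the difference between the diets.

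**Figure D4:**
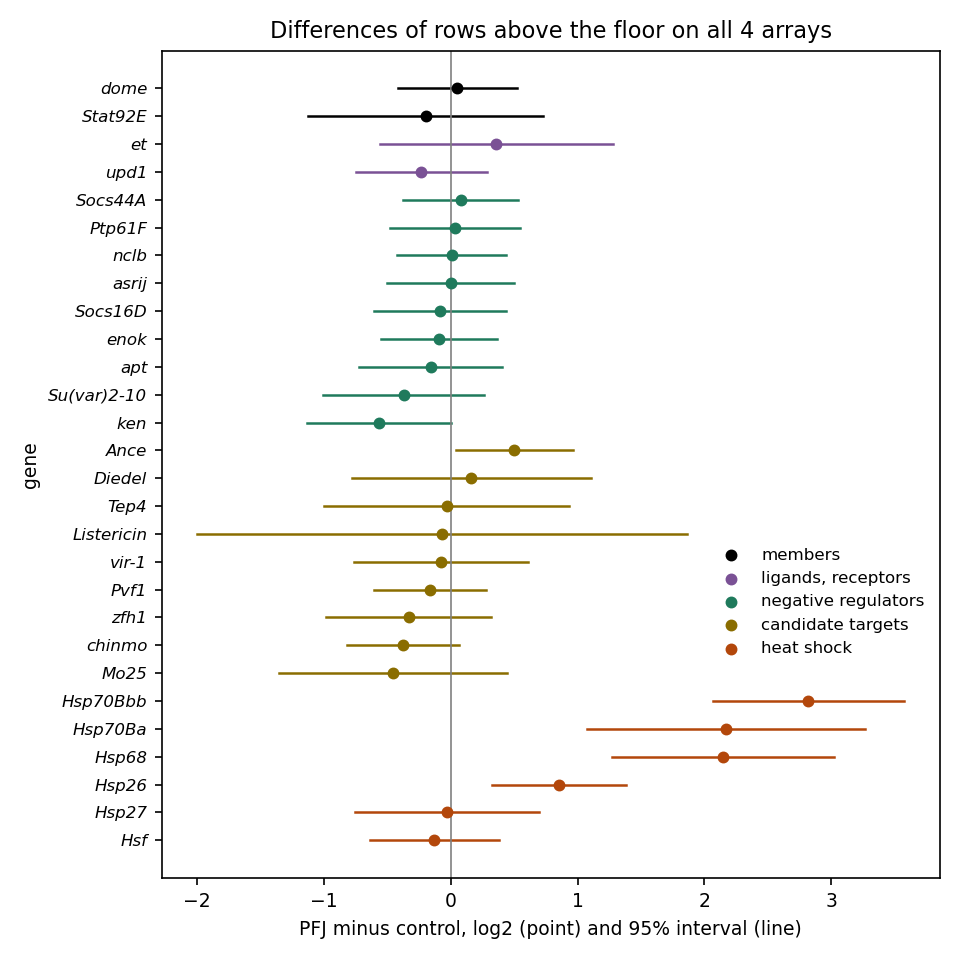
PFJ minus control on the log2 scale (horizontal axis; point, limma estimate; line, 95% interval) for rows above the floor on all 4 arrays (vertical axis), coloured by list. The intervals of dome and Stat92E span 0, and those of Hsp70Bbb, Hsp70Ba, Hsp68, Hsp26 and Ance lie above 0 before adjustment.

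Other known inputs to the Turandot genes gave no call either. Of the Mekk1 and p38 list, 6 of 8 genes had a row, with a median log2 difference of -0.02. Of the 6, 0 passed the adjusted or the unadjusted threshold, where 0% and 2.78% of all genes did. At such shares a short list without a call is not read as a result. Mekk1, the kinase gene linked to TotA induction, read 5.62 and 5.26 with PFJ and 5.27 and 5.56 in controls. In the same list lic, the p38 kinase kinase gene, differed by -0.84 (SE 0.55), with 5.90 in PFJ replicate 1 and 7.36 in PFJ replicate 2, against 7.30 and 7.64 in controls. Of the Imd list 8 of 10 genes had a row and 0 passed either threshold, beside the same shares of all genes, at a median of 0.05. Differences were positive in 4 of the 8 and negative in 4, where 51.9% of all genes had a positive one. The gene key, of that list, differed by -0.20 (SE 0.19). Rel, the gene of Relish, read 6.85 and 6.33 with PFJ and 6.35 and 6.36 in controls, a log2 difference of 0.24 (SE 0.24). The inhibitor gene pirk, a Relish target, differed by 0.55 (SE 0.32), with 7.10 and 7.60 in PFJ pools and 6.50 and 7.10 in control pools.

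The JNK pathway is an inducer of upd3 in several fly tissues. Of its 12 listed genes 11 had a row, with a median log2 difference of -0.11. Differences were positive in 2 and negative in 9, where 51.9% of all genes had a positive one, and a shift of the list was not tested. Limma called 0 at an adjusted p under 0.05 and 1 at an unadjusted p under 0.05. In that direction, lower with PFJ, 1.04% of all genes were called. That gene was kay, for the Fos transcription factor, which read 7.48 in both PFJ pools, against 7.995 and 8.100 in the control pools. Its log2 difference was -0.56 (SE 0.16, unadjusted p 0.0246, adjusted p 1). The receptor gene wgn differed by -0.68 (SE 0.40), with 5.36 in PFJ replicate 1 and 6.38 in PFJ replicate 2, against 6.66 and 6.44 in controls. The phosphatase gene puc, used as a readout of JNK activity, read 7.61 and 7.71 with PFJ and 7.67 and 7.73 in controls.

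Heat is a known inducer of Turandot genes, and heat shock genes of the same pools are given beside them. Of 12 listed, 6 had a row and 4 were higher at an unadjusted p under 0.05, as were 1.74% of all genes, and 0 passed adjustment. Hsp68, Hsp70Ba and Hsp26 differed by 2.15, 2.17 and 0.85 on the log2 scale, whereas Hsp27 differed by -0.03 (SE 0.26) and the regulator gene Hsf by -0.13 (SE 0.18). Hsp70Bbb read 9.26 and 8.78 in the PFJ pools, against 6.41 and 5.99 in the control pools, a log2 difference of 2.82 (SE 0.27, limma adjusted p 1, unadjusted p 0.000485). Since the Hsp70 genes are near-identical copies, a value for 1 copy is uncertain. TotC and the 4 other Turandot rows were below the floor in those same PFJ pools.

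Across the study, limma called 0 of 13402 genes at an adjusted p under 0.05 and 373 at an unadjusted p under 0.05, and the 3 members were in neither group. The second count, on which the shares of 2.78%, 1.74% and 1.04% rest, was 945 without control replicate 1 and 566 without PFJ replicate 2. The diets did not overlap in 1 of the 3, TotC, and in 28.6% of all genes. With 2 arrays against 2, an exact permutation test over arrays cannot give a two-sided p below 0.333, which was its value for TotC, beside 0.667 for dome and 1 for Stat92E. The median SE of a gene was 0.22 on the log2 scale, and the intervals of dome and Stat92E above state the sizes of difference that these 4 arrays leave possible.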

How the data were processed

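Expression was measured on 4 single-colour Affymetrix arrays, 2 per diet. The deposited values are log2 intensities, 1 per transcript cluster and array. The authors' tools were RMA and Affymetrix Expression Console, version 1.4.0.38, per the submitters' processing notes. The build and annotation behind the clusters are not given in the sources used here, and coordinates are left out. Of 16322 rows, 13441 had 1 gene symbol, 555 several and 2326 none here. Where a gene had several rows (37 genes) the brightest was kept, which left 13402. PFJ was compared with control in R 4.3.3 with limma 3.58.1 (lmFit and eBayes, two-sided, no covariate, 4.01 degrees of freedom), with Benjamini-Hochberg adjustment over all genes. The procedure was tested on simulated data. Standard errors, intervals and p-values of single genes come from that fit.

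The floor was the 95th percentile of receptor genes named Or, Gr or Ir, without Gr28a, Gr28b and Gr43a. The members and lists were chosen with earlier results of these data known. All members with a row were named, along with up to 4 genes per pathway list with the smallest unadjusted p and the 3 profiles closest to the most variable member. Genes such as Socs44A, Socs16D, vir-1, Diedel, Listericin, Mekk1, puc and the floor-level Turandots were also named for their roles. Protein and promoter sequences were not used here. The number of arrays limits the precision.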

Additional observations from a re-analysis of the deposited data

How the results depend on the processing

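Under 11 other settings limma called 0 genes at an adjusted p under 0.05, and no member passed in any setting where it was tested. TotC is absent from both filters on dim genes. The unadjusted count was 192 among genes above the median level, 245 among genes above the floor (both test fewer genes), and 304 to 945 when 1 array was left out. On leaving out 1 array, the log2 difference ranged from -0.028 to 0.13 for dome and from -0.59 to 0.20 for Stat92E. The direction of dome and of Stat92E turned without PFJ replicate 1 (-0.028 and 0.20), and the cause was not tested. The list medians ranged from -0.012 to 0.35 for ligands and receptors, -0.10 to 0.018 for negative regulators, -0.26 to 0.085 for positive regulators, -0.18 to -0.061 for targets, -0.14 to -0.042 for Mekk1 and p38, -0.27 to -0.072 for JNK, 0.018 to 0.17 for Imd and 1.28 to 1.62 for heat shock genes. With quantile normalization repeated the median of negative regulators was 0.0028. For ligands and receptors it was 0.065 with genes above the floor alone, where upd2 drops out of the list of 3. With genes above the median level alone only et is left, at 0.36. The 4 other Turandots lay below the floor, so their fitted median is not a change in expression. It was 0.17, or 0.068 with quantile normalization repeated, 0.12 with arrays centred on their medians and 0.13 to 0.21 on leaving out 1 array. With a floor at the 25th percentile of all genes or at the receptor gene median, TotC exceeded it on 0 arrays and dome and Stat92E on 4, and TotE exceeded the receptor gene median on 2. The labels do not say whether equal replicate numbers mark a shared batch, and with 2 pairs this was not settled. The deviations of the replicate 1 arrays from their group means correlated at 0.34 over genes, and with the replicate number as a block the unadjusted count was 547 and the adjusted count 0, at unchanged differences of 0.05 for dome and -0.20 for Stat92E.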
